A study of Mus musculus with 4 samples.

Results

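Open chromatin was described at 35 mouse genes of 10 roles that write, erase or read DNA methylation and histone marks, remodel nucleosomes or organise chromosomes. The data were ATAC-seq peak lists, in which a transposase cuts accessible DNA and a peak marks a place with many cuts. Merging peaks of the 4 libraries that shared at least 1 bp gave 97394 regions. A region belonged to a gene when that gene's interval was the nearest protein-coding one within 100 kb of the region's midpoint. The 35 genes held 320 of these regions, spread over 33 genes, and Suv39h2 and Hdac3 held none. The cells were SMARTA CD4 T cells, which carry a transgenic T cell receptor, transferred as naive cells into cytoxan-treated mice bearing B16-GP61, a melanoma line, and taken on day 11 by cell sorting of the lymph node that drains the tumor. The 2 KO libraries (KO-1 and KO-2) came from cells without TOX, an HMG-box DNA-binding protein, sorted as Ly5.1+ Ly5.2- cells low in PD1, LAG3 and CD39. The 2 WT libraries (WT-1 and WT-2) came from cells with TOX, sorted as Ly5.1+ Ly5.2+ cells high in the same 3 proteins. The gate and the congenic marker vary with genotype, so the 3 cannot be told apart. The labels do not say whether libraries of a genotype came from separate animals, nor which part of Tox was deleted.

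DNA methyltransferases place methyl groups on cytosines of CpG dinucleotides, and TET dioxygenases oxidise these groups and start their removal. Polycomb repressive complex 2 methylates lysine 27 of histone H3 at silenced genes, KMT2 enzymes methylate lysine 4 at promoters and enhancers, and lysine 9 is methylated by SUV39H enzymes in heterochromatin and by EHMT enzymes mainly in euchromatin. Acetyltransferases, deacetylases, demethylases and ATP-dependent remodelers adjust these states. In T cells, DNMT3A, TET2 and EZH2 are known to shape helper cell fates and the programs of effector, memory and exhausted cells.

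The lists held 43078 peaks in KO-1 and 61773 in KO-2, against 56852 and 61489 in the WT lists. They hold no read counts, so the depth is unknown and the values carry no counting interval. Each peak carries the authors' own fold enrichment over the caller's background. It was read as a percentile within its list, where 100 is the strongest peak, and serves here as a description. A pair of values for a genotype gives its libraries 1 and 2 in that order. Peak numbers were missing from each list (1603 and 1681 in the KO lists, 1758 and 1900 in the WT lists), so an absent peak can be a removed peak. At the start of Tox, chr4:6990165-6991572, no KO library had a peak, and the WT libraries had peaks of 6.57-fold and 7.12-fold, which separated the libraries as labelled. T cell genes (12 markers) all had a peak in each library, with 82 and 110 of their 138 regions in KO-1 and KO-2, against 85 and 84 in WT-1 and WT-2.

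Nearly all of these genes had an open start site in every library. Of the 31 with a start site in the reference table, 29 (93.5%) had a region with a peak in all 4 libraries within 1 kb of it, where 51.7% of 17274 protein-coding genes did. Hdac1 and Kdm6b had such a region at an end of the gene interval, which brought the count to 35 shared start regions at 31 genes. Their median percentile was 84.5 in KO-1 and 83.5 in KO-2, against 85.9 in WT-1 and 88.3 in WT-2. These start regions were strong in every library, and the medians of the 4 libraries lay close together. Over all 10560 shared start regions of the genome the medians were 85.1 and 88.2 in the KO libraries, against 88.6 and 89.6 in the WT libraries.

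**Figure D1:**
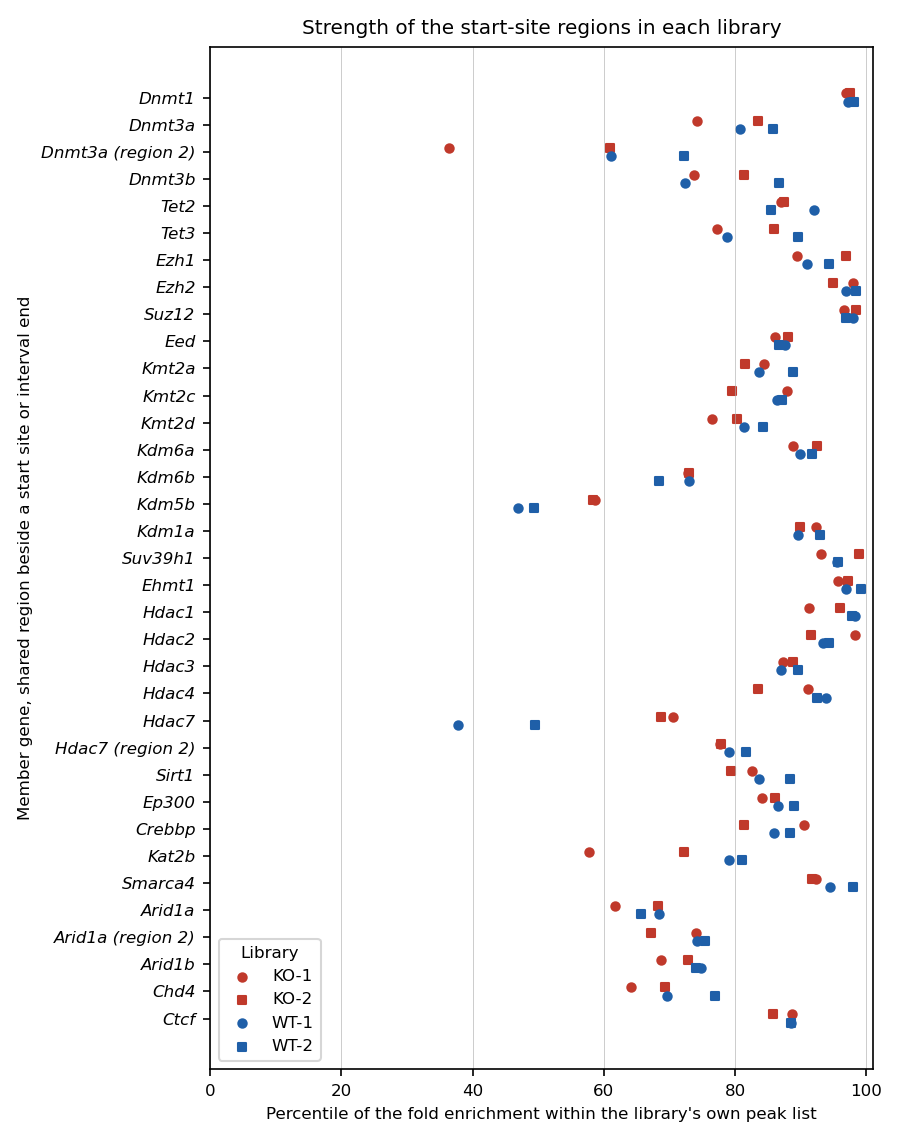
Percentile of deposited fold enrichment within each peak list (x axis, 0 to 100) for the shared region nearest to each start site or interval end (y axis, genes in order of role, the region beside Hdac3 included), with 1 point per library, KO red and WT blue. The starts of Dnmt1, Ezh2, Suz12, Ehmt1 and Suv39h1 lie near the right edge in all 4 libraries, and the KO and WT points of a gene lie close together except at lower starts such as those of Hdac7, Kdm5b and Dnmt3a.

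By mean percentile over the 4 libraries, the strongest starts belonged to Dnmt1, Ezh2, Suz12, Ehmt1 and Suv39h1. At Dnmt1, the maintenance methyltransferase that copies methylation after replication, the start region chr9:20952183-20953322 had folds of 12.1 and 17.4 in the KO libraries, against 15.6 and 16.7 in the WT libraries. At Ezh2, the catalytic subunit of Polycomb repressive complex 2 in dividing cells, the region chr6:47594095-47595699 had folds of 12.8 and 15.6 in the KO libraries, against 15.4 and 16.95 in the WT libraries. Suv39h1, which trimethylates lysine 9 of histone H3, had folds of 10.7 and 19.3 in the KO libraries, against 14.5 and 14.9 in the WT libraries, at chrX:8074083-8075278. The values of the genotypes overlapped at these starts, and each lay at or above the 93.1 percentile of its list. The summit, the base with the highest signal in a peak, fell within 2 bp in the 4 libraries at Dnmt1 and at Ezh2. Over the 35 shared regions nearest to a start site or interval end, that beside Hdac3 included, the summits of the 4 libraries spread over a median of 49 bp, at most 20 bp in 15 regions and over 100 bp in 10. The spread at Kat2b was 1456 bp, with the KO-1 summit at the start site and the others downstream of it.

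Start-site sequence is shown for the genes whose starts set the extremes: Dnmt1 and Ezh2 with strong starts in every library, Suv39h1 beside its paralog Suv39h2, which had no region, and Tet1, whose start was open in some libraries. Each window runs from 250 bases before to 50 bases after a RefSeq start site (GRCm38.p6), is written 5′ to 3′ along the minus strand, and shows in capitals the matches to 8 short promoter motifs searched on both strands.
Dnmt1, covered, chr9:20952930-20953229: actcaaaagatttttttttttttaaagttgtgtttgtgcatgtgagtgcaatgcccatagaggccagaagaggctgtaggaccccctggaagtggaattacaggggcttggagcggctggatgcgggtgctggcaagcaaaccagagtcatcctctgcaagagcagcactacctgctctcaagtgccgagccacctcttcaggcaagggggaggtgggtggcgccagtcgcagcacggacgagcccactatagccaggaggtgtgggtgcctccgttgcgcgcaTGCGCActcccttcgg
Dnmt1, covered, chr9:20952574-20952873: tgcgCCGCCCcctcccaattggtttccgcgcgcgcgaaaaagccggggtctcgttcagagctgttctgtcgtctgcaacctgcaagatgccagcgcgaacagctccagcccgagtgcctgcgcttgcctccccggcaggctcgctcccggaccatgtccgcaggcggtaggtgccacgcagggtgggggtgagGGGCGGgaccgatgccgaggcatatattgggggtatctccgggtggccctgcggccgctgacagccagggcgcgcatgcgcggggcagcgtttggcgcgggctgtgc
Dnmt1, uncovered, chr9:20959839-20960138: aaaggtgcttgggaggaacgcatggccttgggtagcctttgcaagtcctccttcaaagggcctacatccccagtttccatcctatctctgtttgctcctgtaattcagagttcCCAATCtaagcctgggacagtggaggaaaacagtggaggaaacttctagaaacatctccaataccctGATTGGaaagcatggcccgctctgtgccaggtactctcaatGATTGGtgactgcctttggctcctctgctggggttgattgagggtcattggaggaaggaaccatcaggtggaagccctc
Ezh2, chr6:47594981-47595280: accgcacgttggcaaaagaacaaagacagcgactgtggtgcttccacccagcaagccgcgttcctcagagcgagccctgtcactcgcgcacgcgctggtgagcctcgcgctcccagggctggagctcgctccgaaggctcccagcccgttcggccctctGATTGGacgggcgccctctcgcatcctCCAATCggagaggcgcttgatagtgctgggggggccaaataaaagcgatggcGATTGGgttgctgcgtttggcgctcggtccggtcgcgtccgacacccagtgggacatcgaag
Suv39h1, chrX:8074312-8074611: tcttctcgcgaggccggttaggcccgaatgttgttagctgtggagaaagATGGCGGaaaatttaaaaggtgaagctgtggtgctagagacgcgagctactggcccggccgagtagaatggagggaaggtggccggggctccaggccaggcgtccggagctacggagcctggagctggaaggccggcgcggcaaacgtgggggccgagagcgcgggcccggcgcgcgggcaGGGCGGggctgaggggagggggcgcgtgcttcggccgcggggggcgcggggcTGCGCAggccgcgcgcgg
Suv39h2, chr2:3474937-3475236: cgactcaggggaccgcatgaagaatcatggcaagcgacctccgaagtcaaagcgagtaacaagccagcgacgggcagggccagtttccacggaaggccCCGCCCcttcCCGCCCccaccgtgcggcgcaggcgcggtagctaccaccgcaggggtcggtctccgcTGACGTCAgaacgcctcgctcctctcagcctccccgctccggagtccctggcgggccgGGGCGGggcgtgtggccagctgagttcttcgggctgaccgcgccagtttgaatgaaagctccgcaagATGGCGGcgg
Tet1, chr10:62887275-62887574: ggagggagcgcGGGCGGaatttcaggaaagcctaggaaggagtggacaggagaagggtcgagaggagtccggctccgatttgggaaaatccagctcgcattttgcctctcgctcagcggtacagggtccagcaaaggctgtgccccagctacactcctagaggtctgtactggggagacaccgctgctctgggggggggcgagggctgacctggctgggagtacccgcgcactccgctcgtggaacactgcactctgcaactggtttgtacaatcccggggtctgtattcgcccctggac
The motif letters were GGGCGG (the GC box) and TGCGCA (the core of an NRF1 element). CCGGAAG (an ETS element), GATTGG (the inverted CCAAT box) and TATAAA (the TATA box) were searched as well. The others were CACGTG (the E-box), TGACGTC (a CRE-like element) and ATGGCGG (a YY1 element). GGGCGG and ATGGCGG share the letters GGCGG after a different base, so the same GGCGG cannot match both. Neighbouring matches can still share bases at their ends.

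Both covered Dnmt1 windows differed from the uncovered one in base composition. The window at chr9:20952574-20952873 held 33 CpG and that at chr9:20952930-20953229 held 12, and each lay whole within a peak in all 4 libraries. The window of the first listed start, chr9:20959839-20960138, held 2 CpG and had no base in a peak of any library. It holds GATTGG or its complement 3 times and no GC box. Suv39h1 and Suv39h2 did not follow that order. The Suv39h1 window shown held 37 CpG and a second one 15, and both lay whole within peaks, while the Suv39h2 window, chr2:3474937-3475236, held 33 CpG with 3 GC boxes and had no base in a peak. Tet1 (chr10:62887275-62887574, 17 CpG) had no base in a peak in KO-1 and 204 in KO-2, against 0 in WT-1 and 215 in WT-2. Its coverage thus differed within each genotype as much as between them.

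Over the 42 start windows of 31 genes the median was 30.5 CpG and 69% G or C, against 13 CpG and 56.3% over 21263 windows of protein-coding genes. Of these 42 windows, 35 had bases in a peak in all 4 libraries (median 32 CpG), 2 in some libraries, and 5 in none (median 6 CpG). The 5 were the Dnmt1 and Suv39h2 windows above, the first and last listed starts of Hdac7 (6 and 5 CpG) and the second of Kat2b (6 CpG). Kmt2d had no base in a peak in KO-1 and 150 in KO-2, against 156 in WT-1 and 151 in WT-2, with its shared region beginning next to the start site. GGGCGG stood in 73.8% of the windows of these genes, against 46.2% of all windows. TGCGCA stood in 19.0% against 9.74%, ATGGCGG in 11.9% against 5.25%, and CCGGAAG and TATAAA in 0%, against 11.6% and 12.6%. GATTGG (16.7% against 18.2%), CACGTG (7.14% against 7.84%) and TGACGTC (4.76% against 3.84%) stood near the share of all windows. Several windows of one gene overlap or share a promoter, and a match is a description of letters.

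**Figure D2:**
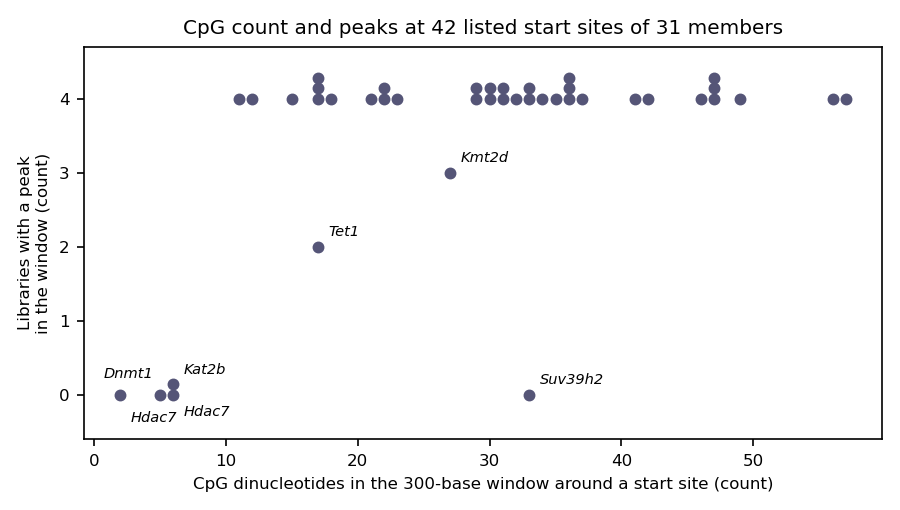
Number of CpG dinucleotides in each 300-base start window (x axis) against the number of libraries with a peak in the window (y axis, 0 to 4), with 1 point per window, stacked upward where points coincide. Windows open in 4 libraries run from 11 to 57 CpG, and the 5 with none have 2, 5, 6, 6 and, at Suv39h2, 33.

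Across all their regions these genes had similar numbers of peaks in the genotypes. Regions with a peak numbered 155 in KO-1 and 206 in KO-2 (180.5 ± 36.1, SD, n = 2), against 183 in WT-1 and 227 in WT-2 (205 ± 31.1, SD, n = 2). The difference of −24.5 regions was smaller than the SD of either genotype (exact two-sided permutation p = 0.667, where 2 against 2 libraries cannot go below 0.333). As a share of each library's regions the counts were 0.389% in KO-1 and 0.353% in KO-2, against 0.345% in WT-1 and 0.387% in WT-2, so the groups overlapped. With lists of equal length the difference was 0, and with the 20000 strongest peaks of each list it was 7 with KO higher (exact permutation p = 0.333). Here and below, peaks for these 2 settings were chosen by the caller's −log10 q, with fold only breaking ties. Without KO-1, the shortest list, it was 1.5. In bulk cells, fewer cells with an open site and less access in each cell cannot be told apart.

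**Figure D3:**
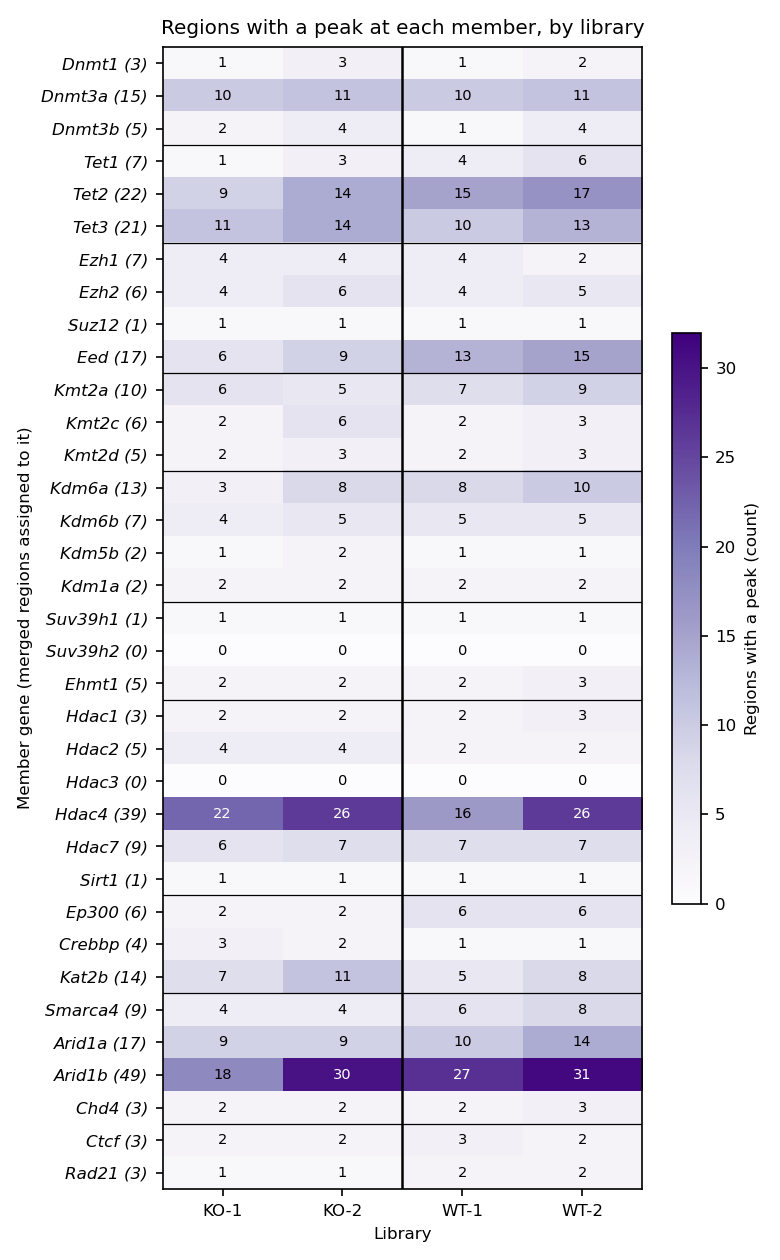
Heat map of the number of regions with a peak (printed in each cell, colour scale from 0) for each of the 35 genes (rows, grouped by role, with the number of merged regions in parentheses) in each library (columns, KO left of WT). Ep300 has 2 and 2 in the KO libraries, against 6 and 6 in the WT libraries, Eed has 6 and 9, against 13 and 15, and most other genes have similar counts in the genotypes.

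Of the 320 regions, 109 (34.1%) had a peak in every library, against 27.6% of all regions. KO-only regions, with a peak in both KO libraries and neither WT library, numbered 9 (2.81%, against 1.78% of all regions). WT-only regions, found in WT-1 and WT-2 and in neither KO library, numbered 33 (10.3%, against 8.8% of all regions). The order of these shares depended on the peaks counted and on the gene rule. With genes within 10 kb the WT-only share was 8.70%, against 8.8% of all regions. Among peaks with a −log10 q of 5 or more the WT-only share was 8.13% at these genes and 13.5% over all regions. With the 20000 strongest peaks of each list there were 10 KO-only regions (9.52%, against 6.76% of all regions) and 5 WT-only regions (4.76%, against 8.96%), which turns the order of the counts at these genes and not over the genome. Without KO-1 there were 55 (17.7%, against 22.3%) and 35 (11.3%, against 10.4%), and the order turned over the genome as well. In that setting KO-only needed a peak in KO-2 alone of the KO libraries, while WT-only still needed both WT libraries. These counts therefore cannot be set against those of all 4 libraries. At least 1 KO-only region stood at 7 of the 33 genes (21.2%, against 7.49% of 16663 genes with a region). At least 1 WT-only region stood at 14 (42.4%, against 26.7%). These genes had a median of 6 regions and all genes a median of 3, so they had more regions that could be of either kind. Arid1a, Hdac4, Kat2b, Tet2 and Tet3 had both kinds, and 17 genes had neither.

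Markers of other cells moved with the WT-only regions over the genome. The 12 B cell markers had a peak in 11 regions in KO-1 and 19 in KO-2, against 97 in WT-1 and 106 in WT-2. Of their 128 regions, 1 was KO-only and 63 were WT-only. The KO libraries had a peak at 5 and 9 of these genes, against 12 and 12 in the WT libraries, and among them Fcer2a and Ms4a1 had none in either KO library. The 12 myeloid and dendritic cell markers had a peak in 26 and 41 regions in the KO libraries, against 60 and 65 in the WT libraries, with 2 KO-only and 27 WT-only of 85, and Fcgr3, Lyz2 and Xcr1 had no peak in any library. The T cell markers had 11 KO-only and 5 WT-only regions. Regions with a peak at 4 NK cell markers numbered 10 and 17 in the KO libraries, against 16 and 18 in the WT libraries, and at 7 melanocyte markers 9 and 17, against 9 and 9. At the 2 CD8 genes they numbered 1 and 5, against 2 and 1. Chromatin regulators are expressed in B cells and myeloid cells as well. The part of these cells in the WT-only regions described here was not tested.

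Of the 33 WT-only regions, 2 lay at a start, both at Tet1, 20 inside the gene interval and 11 outside it. Of the 9 KO-only regions, none lay at a start, 7 lay inside and 2 outside, whereas 35 of the 109 shared regions lay at a start. Over all assigned regions 7.31% of the KO-only, 7.45% of the WT-only and 40.6% of the shared ones lay at a start. Of the 9 KO-only peaks, 2 and 3 lay above the median fold of KO-1 and KO-2, and of the 33 WT-only peaks, 11 and 16 above that of WT-1 and WT-2. The KO-only regions had median folds of 3.20 and 3.41 in the KO libraries, and the WT-only regions 3.61 and 3.80 in the WT libraries. Exon and intron positions were not used here.

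**Figure D4:**
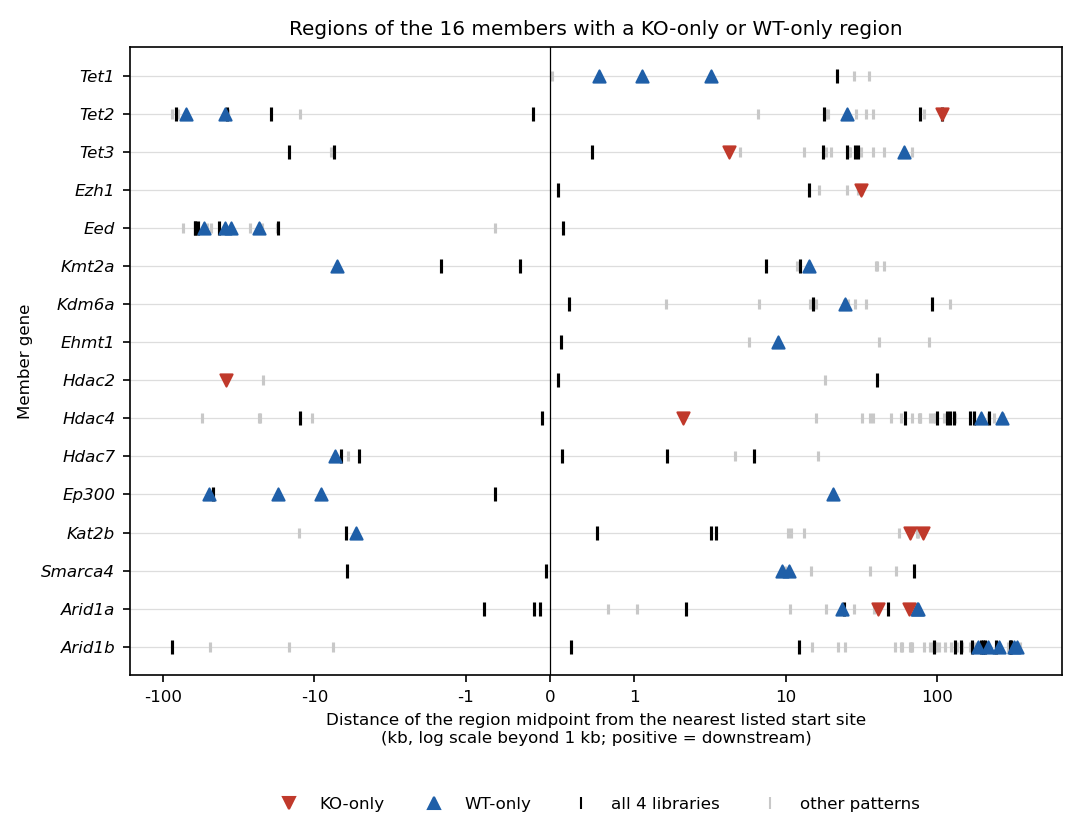
Position of the KO-only and WT-only regions relative to the nearest listed start site (x axis, kb along transcription, negative upstream, log scale beyond 1 kb) for each gene that has one (y axis). Red triangles are KO-only, blue triangles WT-only, and black and grey ticks the shared and other regions. The regions scatter through gene bodies and flanks, with the 4 WT-only regions of Eed all upstream and those of Tet1 from 0.577 to 3.21 kb downstream.

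The DNA methyltransferase genes had neither KO-only nor WT-only regions among 23. Dnmt3a, a de novo methyltransferase that restricts effector plasticity in T cells, had peaks in 10 and 11 of its 15 regions in the KO libraries, against 10 and 11 in the WT libraries. Its first start region, chr12:3806249-3808451, had folds of 6.004 and 10.4 in the KO libraries, against 8.38 and 9.81 in the WT libraries. The region at the third of its listed starts, chr12:3890624-3892437, was weaker, with folds of 3.14 and 5.35 in the KO libraries, against 5.01 and 6.21 in the WT libraries, and its percentiles were 36.5 and 61.0 against 61.2 and 72.1. Dnmt3b, the other de novo enzyme, had its start region in all libraries, with folds of 5.92 and 9.67 in the KO libraries, against 6.49 and 10.2 in the WT libraries. At the starts of both de novo genes KO-2 and WT-2 had the higher value of their genotype.

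The TET genes carried 2 KO-only and 7 WT-only regions of 50. Tet1 differed from the other members of its family in its start. The region over its start site, chr10:62887118-62887489, had a peak in KO-2 (3.26-fold) and WT-2 (2.48-fold), and none in KO-1 or WT-1. Directly downstream, chr10:62886455-62887039 was WT-only with folds of 2.74 and 2.98 in the WT libraries, and so were chr10:62886009-62886405 with folds of 3.75 and 4.01 and chr10:62883850-62884378 with folds of 3.84 and 3.42. No KO library had a peak in these 3 regions, and the WT peaks were weak ones, at or below the 51.6 percentile of their lists. Inside the gene, chr10:62865103-62866115 was open in every library, at percentiles of 74.4 and 74.9 in the KO libraries, against 55.6 and 50.1 in the WT libraries. Tet1 thus had regions of both orders. None of the 3 WT-only regions was left among the 20000 strongest peaks of each list.

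Tet2, whose loss is known to alter helper and memory T cells, had 22 regions with peaks in 9 and 14 of them in the KO libraries, against 15 and 17 in the WT libraries. Its start region, chr3:133543826-133545368, had folds of 8.80 and 12.0 in the KO libraries, against 12.7 and 9.73 in the WT libraries, which overlap. The strongest contrast at Tet2 lay upstream of it. At −39.0 kb, chr3:133582689-133584024 had no peak in either KO library and 8.61 and 7.56 in the WT libraries, the 81.6 and 78.7 percentiles of their lists. The next region, chr3:133582058-133582543 at −37.9 kb, ran the other way, with folds of 3.73 and 8.97 in the KO libraries, against 2.67 and 2.18 in the WT libraries. Its percentiles were 50.7 and 79.2 in the KO libraries, against 11.2 and 1.32 in the WT libraries. Open chromatin stood in this stretch in both genotypes, and its peaks were placed side by side. The size of the contrast at −37.9 kb depended on the measure. By percentile of −log10 q its values were 46.4 and 73.96 in the KO libraries, against 37.8 and 20.2 in the WT libraries, so the difference of the means was 31.2 points, where by fold it was 58.7. The other WT-only regions of Tet2, at −70.0 kb and inside the gene, and its KO-only region, chr3:133436246-133436551, had folds of at most 4.74.

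Tet3 had 21 regions, with 1 KO-only region at +4.23 kb (chr6:83437343-83437559, 2.63-fold in KO-1 and 3.003-fold in KO-2) and 1 WT-only region at +59.9 kb (2.75-fold in WT-1 and 2.83-fold in WT-2). All 4 were weak peaks. Peaks stood in 11 and 14 of its regions in the KO libraries, against 10 and 13 in the WT libraries.

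Among the Polycomb repressive complex 2 genes, Eed held all 4 WT-only regions of 31. Eed, the subunit that binds methylated lysine 27, had peaks in 6 and 9 of its 17 regions in the KO libraries, against 13 and 15 in the WT libraries. How often the counts of a gene differ like this over the genome was not tested. The 4 WT-only regions lay upstream at −23.2, −35.7, −38.8 and −53.2 kb, outside the gene interval. The strongest, chr7:90019613-90019993, had folds of 5.52 and 4.80 in the WT libraries. Its start region was open in all libraries, with folds of 8.55 and 12.2 in the KO libraries, against 10.8 and 10.2 in the WT libraries. When a region had to lie within 10 kb of a gene interval, Eed had none of the 4. Ezh1, the paralog of Ezh2 known from resting cells, had 1 KO-only region inside the gene, chr11:101194772-101195518, with folds of 3.48 and 3.03 in the KO libraries. Suz12, a scaffold subunit, had 1 region, at its start, with folds of 12.0 and 18.5 in the KO libraries, against 16.3 and 15.6 in the WT libraries. Ezh2 had neither kind among 6 regions.

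Of the lysine 4 methyltransferase genes, Kmt2a had 2 WT-only regions of 10, and Kmt2c and Kmt2d, which methylate enhancers, had none of 6 and 5. Kmt2a encodes MLL1, which maintains active promoters and T helper memory. Its WT-only regions were chr9:44866783-44867217 inside the gene, with folds of 3.16 and 4.82 in the WT libraries, and chr9:44888168-44888530 at −7.06 kb, with folds of 3.06 and 4.95. Its start region was shared, with folds of 8.12 and 9.72 in the KO libraries, against 9.30 and 11.2 in the WT libraries. The demethylase genes had 1 WT-only region of 24, in Kdm6a, the lysine 27 demethylase on the X chromosome, at chrX:18187186-18187490, with folds of 5.90 and 4.21 in the WT libraries. Kdm6b, the other lysine 27 demethylase, had 4 shared regions of 7, and Kdm1a, the LSD1 demethylase, had 2 of 2. Kdm5b, a lysine 4 demethylase, was among the few starts with higher KO percentiles, at 58.6 and 58.3, against 47.0 and 49.4 in the WT libraries, in a region that was equally near to the gene Mgat4e.

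The lysine 9 methyltransferase genes had few regions. Ehmt1, which encodes the dimethylase GLP, had a strong shared start, with folds of 11.6 and 17.2 in the KO libraries, against 15.4 and 17.9 in the WT libraries. It also had 1 WT-only region inside the gene, chr2:24910470-24910878, with folds of 5.198 and 7.77 in the WT libraries. Suv39h1 had 1 region and Suv39h2 had 0. The region nearest to Suv39h2 lay 15.4 kb from its interval, was assigned to Hspa14 and had a peak in WT-2 alone.

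Of the deacetylase genes, Hdac4 had 39 regions, second to Arid1b with 49, and these genes together held 27.5% of the 320. Hdac4 is a class IIa deacetylase that shuttles between nucleus and cytoplasm. It had peaks in 22 and 26 regions in the KO libraries, against 16 and 26 in the WT libraries, with 1 KO-only and 2 WT-only regions, with folds of at most 3.53. That order turned in other settings, to 6 and 0 with lists of equal length, 4 and 0 with the 20000 strongest peaks of each list, and 2 and 0 with a −log10 q of 5 or more. Hdac2, a class I deacetylase of NuRD and other corepressor complexes, had 1 KO-only region at −38.3 kb, chr10:36935926-36936563, with folds of 3.60 and 6.99 in the KO libraries. Hdac7, the class IIa deacetylase known from thymocytes, had 1 WT-only region of 9, with folds of 2.68 and 2.66 in the WT libraries. Its region beside the first listed start, chr15:97841940-97843762, had folds of 5.42 and 6.48 in the KO libraries, against 3.47 and 3.86 in the WT libraries, with both KO values above both WT values. Hdac1 had 2 shared regions of 3, Sirt1, an NAD-dependent deacetylase, had 1 of 1, and Hdac3 had no region by the nearest-gene rule. The shared region across the upper end of the Hdac3 interval, chr18:37954550-37956531, was assigned to Rell2 and had folds of 8.92 and 12.5 in the KO libraries, against 10.5 and 11.6 in the WT libraries.

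Ep300 showed the most one-sided set among the acetyltransferase genes. Ep300 encodes p300, which acetylates lysine 27 of histone H3 at active enhancers. It had peaks in 2 and 2 of its 6 regions in the KO libraries, against 6 and 6 in the WT libraries. Its start region, chr15:81584632-81586478, was shared, with folds of 8.05 and 11.4 in the KO libraries, against 10.4 and 11.3 in the WT libraries. The other 4 regions besides a second shared one were WT-only, at −49.9, −17.4, −8.98 and +20.6 kb. The region at −8.98 kb, chr15:81577052-81577412, had folds of 5.66 and 9.89 in the WT libraries, the 67.0 and 86.0 percentiles. The second shared region, chr15:81539299-81540034 at −46.5 kb, had percentiles of 90.0 and 94.9 in the KO libraries, against 56.7 and 86.3 in the WT libraries, the other order. With a −log10 q of at least 5, 1 of the 4 WT-only regions was left, and with the 20000 strongest peaks of each list, 0. Crebbp, the paralog that encodes CBP, had neither kind among 4 regions. Kat2b, which encodes the acetyltransferase PCAF, had 2 KO-only regions of 14, of which chr17:53650201-53650527 was the stronger, with folds of 4.25 and 6.29 in the KO libraries, and 1 WT-only region with folds of 3.83 and 3.80 in the WT libraries.

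The remodeler genes had 2 KO-only and 10 WT-only regions of 78. Smarca4, the BRG1 ATPase of BAF complexes, had 2 WT-only regions inside the gene, at +9.38 kb (chr9:21625158-21625938) with folds of 5.77 and 6.51 in the WT libraries, and at +10.5 kb (chr9:21626571-21626839) with folds of 3.61 and 2.73. A shared region at −6.05 kb, chr9:21609841-21610401, had percentiles of 55.6 and 78.3 in the KO libraries, against 89.3 and 96.2 in the WT libraries, which do not overlap. Arid1a, a DNA-binding BAF subunit, had 2 KO-only and 3 WT-only regions of 17, all inside the gene. Its strongest one, chr4:133688346-133688852, was KO-only with folds of 4.05 and 9.04 in the KO libraries. Arid1b, the alternative subunit, had 5 WT-only regions of 49 inside a gene of 353 kb, with folds of at most 4.59 and 5.09 in the WT libraries. Chd4, the NuRD ATPase, had neither kind among 3 regions. Neither did Ctcf, the insulator protein, and Rad21, a cohesin subunit, each with 3 regions. The Ctcf start region, chr8:105635858-105637538, had folds of 9.30 and 11.3 in the KO libraries, against 11.1 and 11.1 in the WT libraries.

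Among the 109 shared regions, percentiles of the genotypes overlapped in 60. In 23 (21.1%) both KO percentiles lay above both WT percentiles, against 16.5% of all 26867 shared regions. In 26 (23.9%) both lay below, against 25.9%. The median difference of KO minus WT means was −1.45 percentile points at these genes and −1.35 over all shared regions. At start regions 2 of 35 lay above (5.71%, against 8.77% of all start regions) and 12 below (34.3%, against 31.9%). Away from starts 21 of 74 lay above (28.4%, against 21.0%) and 14 below (18.9%, against 22.3%). The lists differ in length, which shifts percentiles, and with lists of equal length 27 lay above and 18 below, where 26.1% of all shared regions lay above and 19.3% below.

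**Figure D5:**
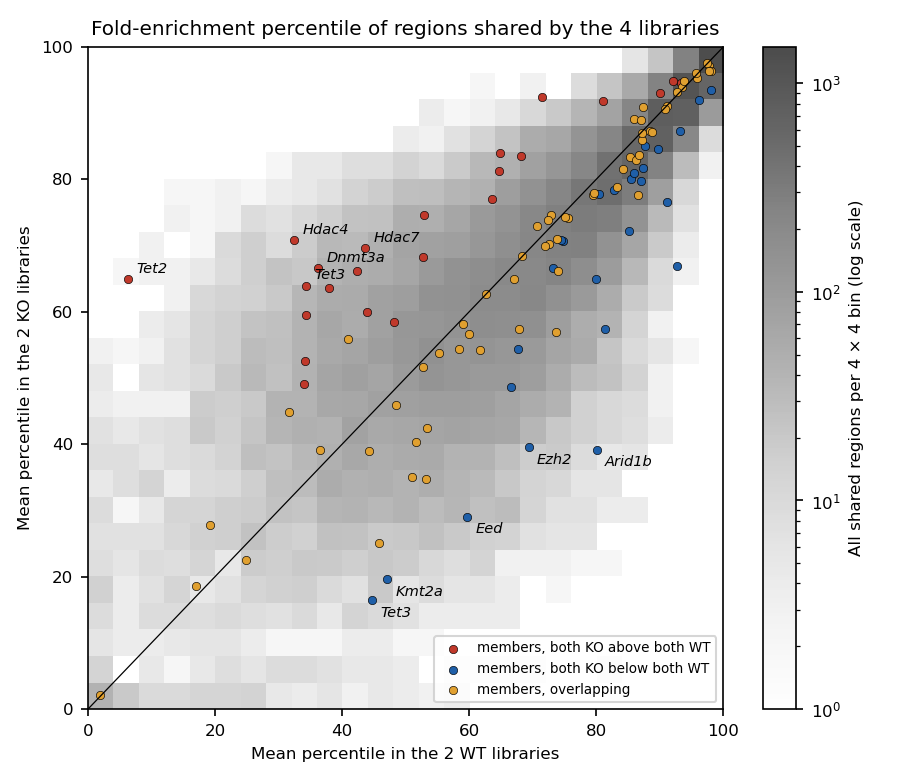
Mean percentile of fold in the KO libraries (y axis) against that in the WT libraries (x axis) for the 109 shared regions of the 35 genes, over a grey map of the number of all shared regions (log scale). Red and blue points are regions where both KO percentiles lie above or below both WT percentiles, orange points overlap, and the Tet2 region at −37.9 kb lies furthest above it and the Arid1b region furthest below.

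After Tet2, the regions furthest above in KO lay at Hdac4, Dnmt3a, Tet3 and Hdac7. At Hdac4, chr1:92192194-92193181 at −12.3 kb had percentiles of 66.7 and 74.9 in the KO libraries, against 21.4 and 43.6 in the WT libraries. At Dnmt3a, chr12:3835592-3835966 inside the gene had percentiles of 59.9 and 73.2 in the KO libraries, against 25.2 and 47.3 in the WT libraries. At Tet3, chr6:83423799-83424459 had percentiles of 65.7 and 62.2, against 23.3 and 45.5. These regions were chosen for having every KO value higher, and their means differed by 38.3, 30.4 and 29.6 points. With lists of equal length, those of Hdac4 and Tet3 and the Tet2 region at −37.9 kb were no longer shared. The regions furthest below lay at Arid1b, Eed, Ezh2, Tet3 and Kmt2a. At Arid1b, chr17:5195412-5196163 had folds of 2.95 and 4.43 in the KO libraries, against 7.49 and 8.73 in the WT libraries, a difference of −40.9 percentile points. At Eed, chr7:90042364-90042770 had folds of 2.82 and 3.55 in the KO libraries, against 5.10 and 4.41 in the WT libraries. The adjoining shared region of Eed, chr7:90041581-90042281, had the other order, with folds of 4.95 and 5.93 in the KO libraries, against 3.23 and 4.01 in the WT libraries. At Ezh2, chr6:47560842-47561856 inside the gene had percentiles of 19.2 and 59.9, against 75.1 and 63.6. Its difference of −29.8 points was −9.46 without KO-1 and −5.09 with peaks joined by summits. Tet3 (−28.2 points, chr6:83416115-83416671) and Kmt2a (−27.5 points, chr9:44882614-44882898) followed, with −13.7 and −9.17 points without KO-1, and Tet3 with −14.7 by percentile of −log10 q. Most of these genes held shared regions of both orders. Regions above and below numbered 4 and 1 at Hdac4, 1 and 2 at Dnmt3a, 2 and 2 at Tet3, 3 and 2 at Hdac7, 3 and 4 at Arid1b, 1 and 2 at Eed, and 1 and 1 at both Ezh2 and Kmt2a, whereas Tet2 had 2 above and 0 below.

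Other chromatin genes were taken from a list of 118 readers, cofactors, complex subunits and paralogs. The 112 with a region held 825 regions, with a peak in 406 and 547 of them in the KO libraries, against 503 and 563 in the WT libraries. Of these 28 (3.39%, against 1.78% of all regions) were KO-only at 20 genes and 69 (8.36%, against 8.8%) WT-only at 33 genes. Shared ones numbered 293 (35.5%, against 27.6%). Shared regions above and below in KO numbered 23 and 26 of 109 at the 35 genes, and 40 and 81 of 293 at these other genes. Over all shared regions the shares were 16.5% and 25.9%. A WT-only region stood at 14 of 33 and at 33 of 112 genes, against 26.7% of all genes with a region. For KO-only regions these were 7 of 33 and 20 of 112, against 7.49%. The difference between the lists was not tested. The most KO-only regions stood at the remodeler gene Chd7 (5 of 45), followed by Smarce1, Arid2, Aebp2 and Satb1 with 2 each. The distance of Chd7 and the other listed genes from the deleted Tox locus was not taken into account. The most WT-only regions stood at Hdac9, another class IIa deacetylase (10 of 29), followed by Prdm2 (7 of 20), Mta3 (6 of 21) and Chd1 (4 of 15). Hdac9 had peaks in 5 and 7 regions in the KO libraries, against 17 and 24 in the WT libraries.

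The distance limit touched few genes. The regions just inside 100 kb lay 85.9 kb from Tet2 and 86.0 kb from Arid1b, and those just outside lay 107 kb from Tet2, 113 kb from Arid1b (WT-only) and 115 kb from Tet2. Beyond the limit, 22 regions lay nearest to 2 of the genes. Of the 320 regions, 118 (36.9%) had a peak in 1 library alone, against 48.4% of all regions.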

How the data were processed

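The deposited files were 4 lists of ATAC-seq peaks, 1 per library, with 10 columns and no header. The submitters' processing notes name MACS2, BWA, Picard, SAMtools and deepTools, and GRCm38 (mm10). Versions, settings and any shift for the transposase were not given in the sources used here. The deposited fold enrichment (column 7) is a ratio to the caller's background. The deposited −log10 q (column 9) served as a filter, as the order for choosing the strongest peaks, and as a second percentile. The summit offset placed summits and joined peaks in the alternative by summits. No result given here rests on the deposited −log10 p or score. The lists give no counts, so no count test was run and depth is unknown. Genes came from RefSeq intervals (GRCm38.p6), and start sites and sequences from RefSeq windows, which 31 of the 35 genes matched. For Hdac1, Hdac3, Kdm6b and Rad21 the interval ends were used. Regions equally near to 2 genes counted for both (2 of the 320). Percentiles are ranks within a list. Library counts were compared by an exact permutation test, and regions and genes were counted without a test. The region merging, the classes by library and the exact test were tested on simulated data. The gene assignment and the marking of start regions were not tested in that way. The genes, their lists and the alternatives (stricter peaks, equal lists, joining by summits, narrower gene rules, each replicate left out, a replicate block) were chosen with earlier results of these data known. Described in full were genes with a KO-only or WT-only region, without a shared start region or with most regions, and in each direction the 5 shared regions with the largest difference. Other regions and genes named, among them those of Ep300 and Smarca4, were chosen after their values were seen. Some items that fall under these rules are not reported here. Python 3.11 and pandas 2.3.3 were used.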

Additional observations from a re-analysis of the deposited data

How the results depend on the processing

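Counts of KO-only and WT-only regions at these genes were 9 and 33, 6 and 17 with a −log10 q of at least 5, 5 and 11 with at least 10, 15 and 24 with lists of equal length, 10 and 5 with the 20000 strongest peaks, 11 and 35 with peaks joined by summits, 7 and 24 within 10 kb, and 7 and 22 inside gene intervals. Leaving out a library requires fewer peaks and gave 12 to 55 KO-only and 35 to 76 WT-only regions, with the 55 and 35 both without KO-1. The WT-only share exceeded that of all regions in the lists as deposited (10.3% against 8.8%) and fell below it with a −log10 q of at least 10 (7.38% against 13.2%) and with the 20000 strongest peaks (4.76% against 8.96%). With the narrower gene rules it was close to that of all regions, at 8.70% within 10 kb and 8.56% inside intervals, against 8.8%. Shared regions numbered 109, and 84, 65, 100 and 57 in the first 4 of these settings, 112 to 123 with a library left out. The difference in regions with a peak was −24.5, with −21.5 and −8.5 for stricter peaks, 0 with equal lists, 7 with the strongest peaks, −14 with either narrower gene rule, and −50.5 to 1.5 with a library left out. Shared regions above in KO and below numbered 23 and 26, with 13 and 35 (9.72% and 39.3% of all shared regions), 6 and 26 (7.82% and 39.2%), 27 and 18 (26.1% and 19.3%), and 10 and 10 (20.6% and 19.7%) in the first 4 settings. By percentile of −log10 q they were 20 and 18, and with a library left out 32 to 56 and 37 to 62. For the other chromatin genes KO-only and WT-only regions were 28 and 69, with 11 and 69, 4 and 43, 30 and 68, and 15 and 19 in the first 4 settings and 38 to 145 and 81 to 173 with a library left out. The cause of these changes was not tested. Libraries with the same number differed by −28 and −21 regions, and the replicate block gave −24.5 (exact permutation p = 0.5, the smallest it allows). Deviations of same-numbered libraries correlated at 0.0173 over shared regions. A correlation over regions cannot show whether these libraries share an animal, a sort or a batch, which was not tested. Of the 10 named shared regions no percentile difference changed sign where the region stayed shared. They were chosen because the genotypes did not overlap, so leaving out a library could hardly change a sign. The narrower gene rules left the values as they were. No such region was compared with a −log10 q of at least 10 or with the 20000 strongest peaks. With a −log10 q of at least 5, only those of Dnmt3a and Hdac7 were compared. The regions above in KO at Tet2, Hdac4 and Tet3 were not shared with lists of equal length, and so were not compared there. That of Hdac7 was not compared with peaks joined by summits. KO-only and WT-only counts were both followed only at Arid1a, Hdac4, Kat2b, Tet2 and Tet3, which had both kinds. At the other genes a turn could not be seen. Among those followed, the order turned at Hdac4 in 7 settings, some of them with a library left out. It also turned at Arid1a with the 20000 strongest peaks (1 and 0) and at Kat2b without WT-1 (2 and 3). For single genes and regions, 26 percentile differences and 108 counts moved by more than their bound and 62 and 123 did not.

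Absence of a peak depends on the caller's threshold, on an unknown depth and on removed peaks. With 2 libraries a genotype the exact permutation test cannot go below 0.333, and gate and congenic marker vary with genotype.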
